A study of Mus musculus with 13 samples.

Results

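Chemokines are small secreted proteins that call leukocytes into tissue, and the transcripts of 10 genes of this system were looked for in mouse hearts under pressure overload: the chemokines Ccl2, Ccl6, Ccl7, Ccl8, Ccl9, Cxcl12, Cxcl14, Cxcl16 and Cx3cl1, and the receptor Ccr2. The genes were set by this list of names, which was drawn up with earlier results of these data known. Probes that the array annotation assigns to them were taken, and 8 of the 10 genes were measured, among 8336 genes in all. No probe with the name Ccl2 or Ccr2 was at hand, so the ligand and receptor pair best known for the recruitment of monocytes was not analysed here. The probes of the 8 measured genes were detected (detection p under 0.05) on 13 of 13 arrays, so none of them entered the analysis through a single group. Cxcl12 had 3 probes and Cxcl14 had 2, and the brightest stood for the gene. The other 6 genes had 1 probe each.

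Whole hearts came from male C57BL/6 mice of 8 to 10 weeks, 1 week after transverse aortic constriction (TAC) or sham surgery. TAC narrows the aorta and makes the left ventricle pump against a raised pressure. From the day of surgery the mice received by oral gavage either water as the vehicle (Veh) or tauroursodeoxycholic acid (TUDCA), a taurine-conjugated bile acid used as a chemical chaperone, at 300 mg/kg per day. There were 3 hearts each in the Veh-Sham, TUDCA-Sham and Veh-TAC groups and 4 in the TUDCA-TAC group, with 1 Illumina MouseRef-8 v2 array for each of the 13 hearts. Values are log2 normalized intensities, written below as log2 signals. They are given by heart in the order of the replicate numbers, which carry no rank. Differences were tested with limma over all 8336 genes, and a gene was called at a Benjamini-Hochberg adjusted p under 0.05. With 3 or 4 hearts in a group, their number sets the precision.

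Chemokines fall into the CC, CXC and CX3C classes by the spacing of cysteines near their amino terminus, and they act through G protein-coupled receptors. In heart muscle, resident macrophages, fibroblasts, endothelial cells and arriving leukocytes all make and read them. CC chemokines such as Ccl7 and Ccl8 are known for drawing monocytes and other leukocytes. Cxcl12 holds cells that bear Cxcr4, and Cxcl16 and Cx3cl1 are made as membrane proteins that are shed by proteases. Cxcl14 is a chemokine of resting tissue whose receptor is not settled.

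RefSeq promoters (GRCm38.p6, 250 bases before to 50 bases after the gene start) were found for 7 of the 10 genes. They are shown for 3 of the 4 genes called in the vehicle groups, to set the promoters of genes that rose beside that of the gene that fell. For Cxcl16, which rose, none was found. Ccl12 is added because it neighbours Ccl8 and was called in the same direction. Capitals mark a match to TATAAA, the motif of the TATA box, searched on both strands.
Ccl8, chr11:82114935-82115234 (plus strand): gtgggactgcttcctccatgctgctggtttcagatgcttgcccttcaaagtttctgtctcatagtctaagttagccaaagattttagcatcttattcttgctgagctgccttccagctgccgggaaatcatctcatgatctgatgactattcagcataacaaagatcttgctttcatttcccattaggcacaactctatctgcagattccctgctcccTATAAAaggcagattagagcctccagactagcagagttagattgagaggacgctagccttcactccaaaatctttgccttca
Ccl12, chr11:82101595-82101894 (plus strand): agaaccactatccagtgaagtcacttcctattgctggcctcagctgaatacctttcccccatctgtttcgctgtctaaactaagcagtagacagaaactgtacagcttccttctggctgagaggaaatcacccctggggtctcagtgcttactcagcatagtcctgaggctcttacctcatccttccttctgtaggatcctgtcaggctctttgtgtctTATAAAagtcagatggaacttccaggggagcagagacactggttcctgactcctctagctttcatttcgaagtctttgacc
Cx3cl1, chr8:94771930-94772229 (plus strand): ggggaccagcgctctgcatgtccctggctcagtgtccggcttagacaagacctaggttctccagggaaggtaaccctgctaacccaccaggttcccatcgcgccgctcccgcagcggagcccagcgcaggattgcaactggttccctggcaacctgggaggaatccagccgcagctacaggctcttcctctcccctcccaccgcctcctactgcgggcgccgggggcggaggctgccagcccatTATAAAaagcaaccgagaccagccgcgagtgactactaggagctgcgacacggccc
Cxcl14, chr13:56296502-56296801 (minus strand): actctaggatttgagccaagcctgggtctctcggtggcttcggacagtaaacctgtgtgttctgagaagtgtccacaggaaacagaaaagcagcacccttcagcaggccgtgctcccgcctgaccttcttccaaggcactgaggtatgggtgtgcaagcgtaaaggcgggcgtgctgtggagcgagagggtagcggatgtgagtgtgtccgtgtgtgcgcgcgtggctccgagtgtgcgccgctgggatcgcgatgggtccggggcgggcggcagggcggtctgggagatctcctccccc
In Ccl8 the match to TATAAA began 32 bases before the start, in Ccl12 31 bases before it and in Cx3cl1 6 bases before it. The Cxcl14 window held none. The Ccl9 promoter held TATAAA as well, while those of Ccl6, Cxcl12 and Ccr2 held none. The motif was found in 13.6% of the 32851 RefSeq promoters of this length. Searched in the same way, TGANTCA, a loose form of the AP-1 motif with any base at N, was present in 7.81% of all promoters. The consensus of NF-kB was present in 9.38%. Neither was found in these 4 windows. Among the promoters of the listed genes 1 match to TGANTCA, reading TGAATCA, lay in that of Ccl9, 53 bases before the start. A match of letters is a description of the sequence and not a binding site.

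The arrays differed in background. Raw intensity had a 25th percentile of 303 to 315 in the Veh hearts and 259 to 306 in the TUDCA-Sham hearts. In the TUDCA-TAC hearts it was 164 to 270, with replicate 4 lowest at 164. Its ratio of the 90th to the 25th percentile was 19.3, against 6.49 to 8.52 on the other 12 arrays. Genes called in a comparison with the TUDCA-TAC group are therefore followed by what became of the call without that heart and with array background in the model. The background of the TUDCA-TAC and Veh-TAC hearts did not overlap, so that model can tell background from group only in part. Between 11647 and 12791 probes were detected per array, and 11 of 12 cardiomyocyte markers were measured, with a mean log2 signal between 13.14 and 13.91 in every heart.

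Chemokine transcripts moved in both directions with TAC in vehicle-treated hearts. Ccl8 rose 4.65-fold, Cxcl16 rose 2.43-fold and Cx3cl1 rose 1.58-fold, while Cxcl14 fell 1.98-fold. Of the 8 measured genes 3 were called higher and 1 lower, beside 12.5% of all genes called higher and 12.5% called lower. The median log2 fold change of the 8 was 0.55, beside -0.03 over all genes. In every one of the 8 genes the Veh-TAC and Veh-Sham hearts did not overlap: 6 were higher in every Veh-TAC heart and 2 were lower, beside 19.4% and 23.7% of all genes. Under scaling of the arrays to one median, 79.2% of all calls were higher against 50.2% as reported, and the median of all genes moved to 0.12. Without background subtraction the log2 fold changes of Ccl8, Cxcl16, Cx3cl1 and Cxcl14 were smaller, at 1.49, 1.00, 0.42 and -0.58, and all 4 were still called.

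**Figure D1:**
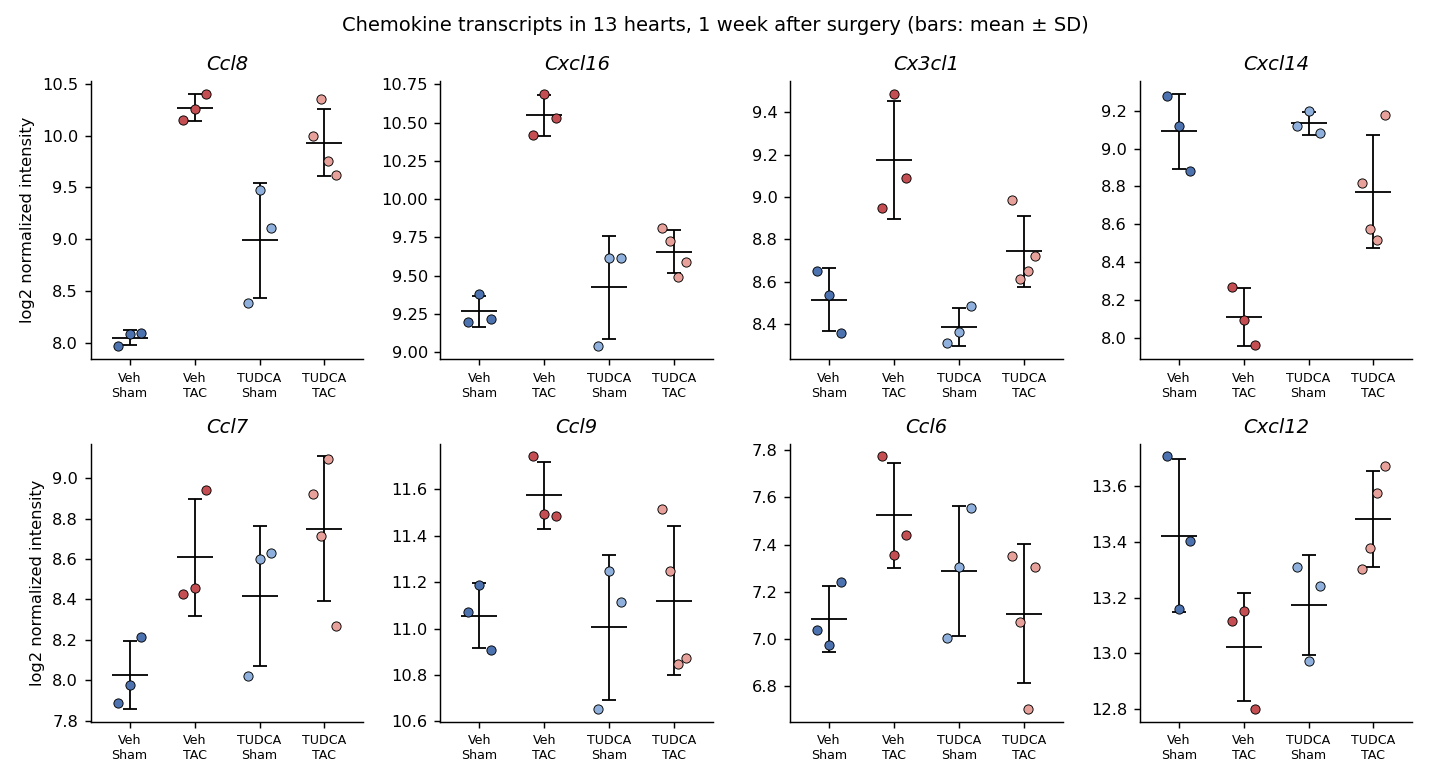
Log2 normalized intensity (y axis, own range in each panel) of the 8 measured chemokines in each heart, by group (x axis), with points for hearts and bars for mean ± SD. Ccl8 lay at 7.97 to 8.10 in the Veh-Sham hearts and at 10.15 to 10.40 in the Veh-TAC hearts, and Cxcl14 showed the opposite order.

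Ccl8 encodes a CC chemokine that draws monocytes, lymphocytes and eosinophils. Its log2 signal was 7.97, 8.09 and 8.10 in the Veh-Sham hearts and 10.15, 10.26 and 10.40 in the Veh-TAC hearts. The 2 groups were far apart, and the spread within each was small. The log2 fold change was 2.22 (standard error 0.24, 95% confidence interval 1.69 to 2.74, adjusted p = 0.000117). In the TUDCA-Sham hearts the log2 signal of Ccl8 was 8.39, 9.48 and 9.11, and in the TUDCA-TAC hearts 9.99, 10.36, 9.75 and 9.62. Every TUDCA-Sham heart lay above every Veh-Sham heart, and the TUDCA-TAC hearts lay above the TUDCA-Sham hearts.

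Cxcl16 encodes the ligand of Cxcr6, a membrane protein of macrophages and endothelium that also takes up oxidized lipoprotein. Its log2 signal was 9.20, 9.38 and 9.22 in the Veh-Sham hearts and 10.42, 10.69 and 10.53 in the Veh-TAC hearts. With TUDCA it was 9.04, 9.61 and 9.62 after sham surgery and 9.81, 9.73, 9.49 and 9.59 after TAC. The Veh-TAC hearts stood above the other 10 hearts, while the TUDCA-TAC and TUDCA-Sham hearts overlapped. In the vehicle groups the log2 fold change was 1.28 (standard error 0.16, 95% confidence interval 0.94 to 1.62, adjusted p = 0.000219).

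Cx3cl1 encodes fractalkine, which is shed from endothelium and binds Cx3cr1 on monocytes and macrophages. Its log2 signal was 8.65, 8.54 and 8.36 in the Veh-Sham hearts and 8.95, 9.49 and 9.09 in the Veh-TAC hearts. With TUDCA it was 8.31, 8.36 and 8.48 after sham surgery and 8.98, 8.61, 8.65 and 8.72 after TAC. Within each treatment the TAC hearts lay above the sham hearts. The log2 fold change with vehicle was 0.66 (standard error 0.15, 95% confidence interval 0.33 to 0.99, adjusted p = 0.00755). It lost its call in the methods' t-test after Benjamini-Hochberg adjustment.

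Cxcl14 was the called gene that fell. Its log2 signal was 9.28, 9.12 and 8.88 in the Veh-Sham hearts and 8.27, 8.09 and 7.96 in the Veh-TAC hearts. With TUDCA it was 9.12, 9.20 and 9.08 after sham surgery and 8.82, 8.58, 8.52 and 9.18 after TAC. The Veh-TAC hearts lay below the other 10 hearts. The log2 fold change with vehicle was -0.98 (standard error 0.17, 95% confidence interval -1.35 to -0.62, adjusted p = 0.00158). The second, dimmer probe of Cxcl14 gave a log2 fold change of -0.30 and was not called (adjusted p = 0.496), so the fall rests on 1 probe.

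The other 4 genes did not pass the test in the vehicle groups. Ccl7, a ligand of Ccr2, had log2 signals of 7.89, 7.98 and 8.21 in the Veh-Sham hearts and 8.43, 8.46 and 8.94 in the Veh-TAC hearts (log2 fold change 0.58, adjusted p = 0.0819). Ccl9, a mouse CC chemokine that binds Ccr1, had log2 signals of 11.07, 11.19 and 10.91 and of 11.74, 11.50 and 11.49 in the same groups (log2 fold change 0.52, adjusted p = 0.0698). Both genes were higher in each Veh-TAC heart, by less than the test required over all genes. Ccl6, which like Ccl9 is a mouse chemokine of macrophages that binds Ccr1, had log2 signals of 7.04, 6.97 and 7.24 in the Veh-Sham hearts and 7.77, 7.36 and 7.44 in the Veh-TAC hearts (log2 fold change 0.44, adjusted p = 0.112). Cxcl12, the ligand of Cxcr4, had log2 signals of 13.71, 13.16 and 13.40 and of 13.12, 13.15 and 12.80 (log2 fold change -0.40, adjusted p = 0.0937). Its Veh-TAC hearts lay below the Veh-Sham hearts by as little as the gap between 13.16 and 13.15. The unadjusted p was under 0.05 for 8 of the 8 genes, a limit that a large share of all genes passed. Ccl6, with the highest unadjusted p of the 8 (0.0387 from limma), ranked 2872 among all 8336 genes. The probes of Cxcl12 disagreed in sign: the other 2 gave log2 fold changes of 0.41 (adjusted p = 0.206) and -0.31 (adjusted p = 0.145). Leaving out 1 heart gave a call to Ccl7 (without TUDCA-TAC replicate 4), to Ccl9 (without TUDCA-Sham replicate 1 or TUDCA-TAC replicate 1) and to Cxcl12 (without Veh-Sham replicate 2), at adjusted p-values from 0.0441 to 0.0499.

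Markers of other cells moved with these results. Of 20 measured monocyte and macrophage markers 14 were called higher with TAC under vehicle and 0 lower, and of 11 fibroblast markers 8 were higher and 1 lower. The summed intensity of the macrophage markers was 50779 to 53068 in the Veh-Sham hearts, 85288 to 97396 in the Veh-TAC hearts, 46612 to 61386 in the TUDCA-Sham hearts and 55104 to 59755 in the TUDCA-TAC hearts. For the fibroblast markers it was 56575 to 62831, 73866 to 86936, 57196 to 64253 and 58306 to 65480. Dcn, the brightest of them with group means of 15.48 to 15.63 on the log2 scale, weighs most in this sum. The mean log2 signal of the 11 fibroblast markers was 9.67 to 9.95, 10.86 to 11.28, 9.67 to 10.08 and 10.21 to 10.46. By this mean every TUDCA-TAC heart lay above every TUDCA-Sham heart. The defining macrophage markers Cd68, Csf1r, Itgam and Mpeg1 were not analysed here. Of 12 markers of T and B lymphocytes only 1 was measured. Of 6 neutrophil markers 1 (Lcn2) was called higher, of 10 endothelial markers 1 was higher and 1 lower, of 11 cardiomyocyte markers 1 was higher and 1 lower, and of 7 smooth muscle and pericyte markers 1 was higher. In whole-heart RNA more cells of a type and more RNA per cell cannot be told apart, and the part of these cells in the chemokine results was not tested.

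Other genes of the chemokine system were read from lists of named genes. Of 14 measured chemokines outside the 10, 4 were called higher in the Veh-TAC hearts and 1 lower, with a median log2 fold change of 0.16. Ccl12, a ligand of Ccr2 in mice, went from a mean log2 signal of 8.56 ± 0.38 (SD, n = 3) to 10.72 ± 0.31 (SD, n = 3), a log2 fold change of 2.16 (adjusted p = 7.63e-05 from limma). Ccl4, detected on 2 of 3 Veh-Sham arrays, had a log2 fold change of 2.83 (adjusted p = 0.000145), and 1.15 without background subtraction. Ccl5, which draws T cells and monocytes, and Cxcl1, which draws neutrophils, had log2 fold changes of 0.99 and 1.00 (adjusted p = 0.0195 and 0.0450). Ccl11, or eotaxin, which draws eosinophils, fell by 1.60 on the log2 scale (adjusted p = 0.000107), and its log2 fold change was -0.67 without background subtraction. Its log2 signal was 8.24, 8.47 and 8.42 in the Veh-Sham hearts and 6.83, 6.77 and 6.72 in the Veh-TAC hearts. The call of Cxcl1 was kept in 11 of 27 other settings and that of Ccl5 in 22 of 28. Without background subtraction the log2 fold changes of Ccl5 and Cxcl1 were 0.45 and 0.38.

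On mouse chromosome 11 in the RefSeq table, Ccl2, Ccl7, Ccl11, Ccl12 and Ccl8 follow each other with no other listed gene between them. In the Veh-TAC hearts the log2 fold changes of the 4 that were measured were 0.58, -1.60, 2.16 and 2.22 in that order. Neighbours in this cluster moved in opposite directions. Ccl5, Ccl9, Ccl6, Ccl3 and Ccl4 form a second run on the same chromosome, where the 4 measured genes had log2 fold changes of 0.99, 0.52, 0.44 and 2.83, all positive, and the calls were those of Ccl5 and Ccl4.

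**Figure D2:**
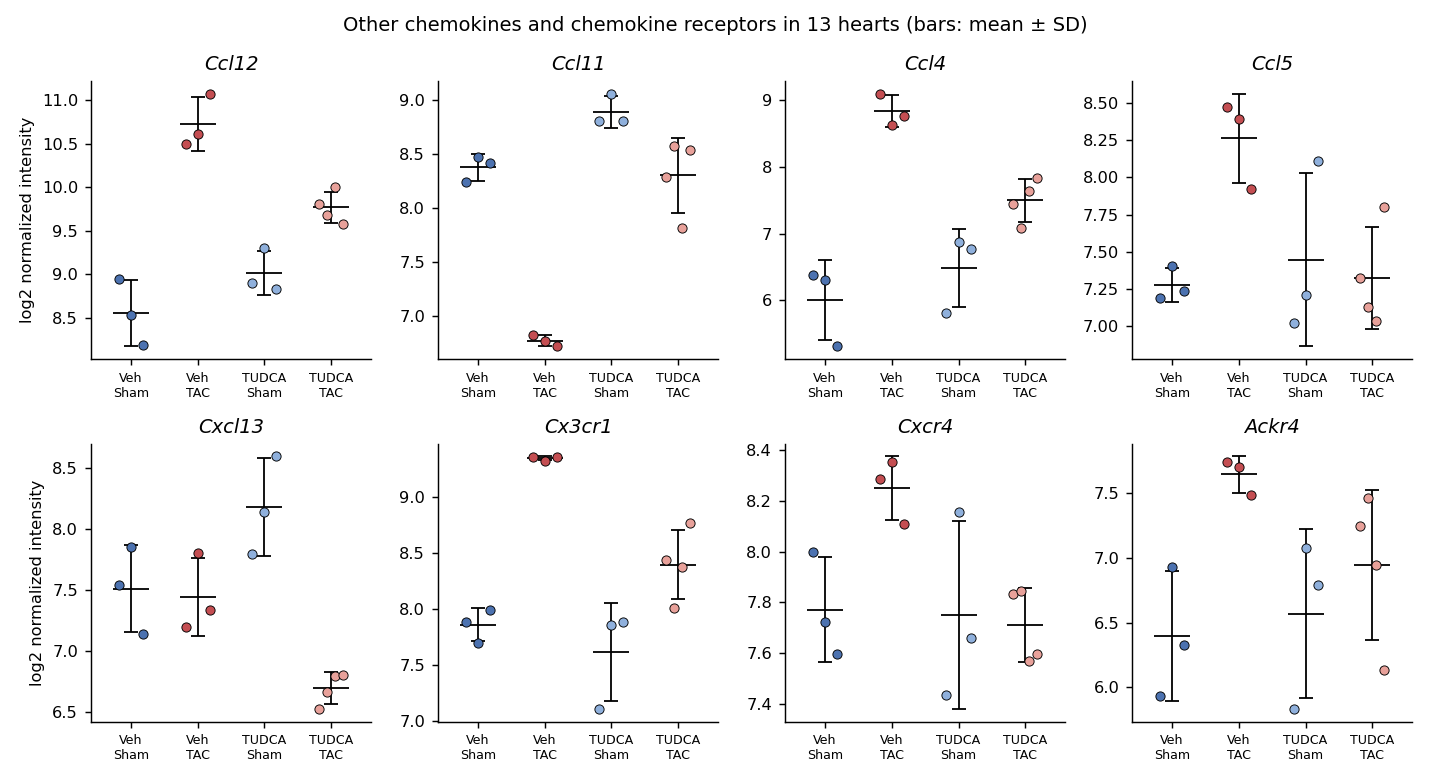
Log2 normalized intensity (y axis, own range in each panel) of 5 chemokines and 3 receptors outside the 10 genes, by heart and group (x axis), with points for hearts and bars for mean ± SD. Ccl11 lay at 6.72 to 6.83 in the Veh-TAC hearts and at 7.82 or above in the other 10, while Cx3cr1 was highest in the Veh-TAC hearts.

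Of 22 other receptors 5 were measured, 2 of which were called higher and 1 lower in the Veh-TAC hearts. With arrays scaled to one median 4 were called higher and 0 lower. Cx3cr1, the receptor of Cx3cl1 on monocytes and macrophages, had log2 signals of 7.89, 7.70 and 7.99 in the Veh-Sham hearts and 9.36, 9.33 and 9.36 in the Veh-TAC hearts. Ligand and receptor were thus both higher, Cx3cr1 by a log2 fold change of 1.49 (adjusted p = 0.000590). Ackr4, a decoy receptor that removes Ccl19, Ccl21 and Ccl25, had a log2 fold change of 1.25 (adjusted p = 0.0279). Ccrl2, which binds chemerin without signalling, had one of -0.53 (adjusted p = 0.0236). The calls of Ackr4 and Ccrl2 were kept in 20 of 27 and 21 of 28 other settings, and the log2 fold change of Ackr4 was 0.41 without background subtraction. Cxcr4, the receptor of Cxcl12, had a log2 fold change of 0.48 and was not called (adjusted p = 0.0657). Cxcr6, the receptor of Cxcl16, was not analysed here.

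Signalling and processing genes gave further counts. Of 14 measured genes of chemokine receptor signalling 9 were called higher and 0 lower, with a median log2 fold change of 0.58. They included Vav1, an exchange factor for Rac in leukocytes (log2 fold change 0.97, adjusted p = 0.000992), Was, which drives actin branching (0.64, adjusted p = 0.00491), and Gnai2, the inhibitory G protein subunit that many chemokine receptors use (0.39, adjusted p = 0.0120). Of 6 measured proteases that shed or cut chemokines, Mmp2 and Mmp14 were higher, with log2 fold changes of 1.69 and 1.77 (adjusted p = 0.000314 and 0.000480). Dpp4, which trims the amino terminus of Cxcl12 and other chemokines, was lower by 0.85 on the log2 scale (adjusted p = 0.00214). Adam10, a sheddase of Cxcl16 and Cx3cl1, was not analysed here. Of 12 measured inducers and members of the NF-kB system 4 were called higher, among them Nfkbiz (1.67, and 0.77 without background subtraction), Tlr2 (0.97) and Tlr4 (0.74) on the log2 scale. The fourth, Il1b, was detected on 0 of 3 Veh-Sham arrays and on 3 of 3 Veh-TAC arrays. It entered through the TAC hearts, so its call is no support for a rise. Its signal was at least 2.03-fold higher. For this bound the lowest signal among detected probes of each Veh-Sham array stood in where it exceeded that of Il1b. Of 7 adhesion molecules of leukocytes Selplg (0.80) and Itgb1 (0.51) were called higher.

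With TUDCA, Ccl8 was 1.92-fold higher in the TAC hearts without passing the test over all genes, and 0 of the 8 genes were called by limma between sham and TAC hearts, beside 1.02% of all genes called higher and 0.768% lower. The unadjusted p was under 0.05 for 3 of them. Cxcl14 had the highest of these 3 (0.0398 from limma), and it ranked 1214 among all 8336 genes, so many genes passed this limit. The median log2 fold change of the 8 was 0.27, beside 0.00 over all genes. Ccl8 and Cx3cl1 were higher in every TUDCA-TAC heart and no gene was lower in every one, beside 6.72% and 8.27% of all genes. The log2 fold change of Ccl8 was 0.94 (standard error 0.23, 95% confidence interval 0.44 to 1.43, adjusted p = 0.0603). This value was near the threshold: Ccl8 was called without TUDCA-TAC replicate 4 (1.04, adjusted p = 0.0390), and also without TUDCA-Sham replicate 2. Over all 30 other settings its log2 fold change was 0.64 to 1.18. Cx3cl1 had a log2 fold change of 0.36 (adjusted p = 0.224), Cxcl14 one of -0.36 (adjusted p = 0.273) and Cxcl16 one of 0.23 (95% confidence interval -0.09 to 0.55, adjusted p = 0.467).

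Among the 4 genes that were not called with vehicle, Ccl7 had log2 signals of 8.02, 8.60 and 8.63 in the TUDCA-Sham hearts and 8.92, 8.71, 9.10 and 8.27 in the TUDCA-TAC hearts. Ccl9 had log2 signals of 10.65, 11.25 and 11.11 and of 11.51, 11.25, 10.85 and 10.87. For both genes the groups overlapped, and TUDCA-Sham replicate 1 was the lowest TUDCA-Sham heart. Ccl6 had log2 signals of 7.004, 7.31 and 7.56 and of 7.35, 7.07, 6.70 and 7.31. Cxcl12 had log2 signals of 13.31, 12.97 and 13.24 and of 13.30, 13.38, 13.58 and 13.67. The overlap for Cxcl12 came down to 1 TUDCA-Sham heart at 13.31 beside 1 TUDCA-TAC heart at 13.30.

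Outside the 10 genes, Cxcl13, which organizes B cells, fell with TAC under TUDCA by 1.48 on the log2 scale (adjusted p = 0.0116). Its log2 signal was 7.79, 8.14 and 8.59 in the TUDCA-Sham hearts and 6.52, 6.66, 6.79 and 6.80 in the TUDCA-TAC hearts, which lay below all other hearts. It was the 1 call among the 14 other chemokines, kept without TUDCA-TAC replicate 4 (-1.52, adjusted p = 0.00762) and with array background in the model (-1.61, adjusted p = 0.00962), and its log2 fold change with vehicle was -0.06. Without background subtraction it fell by 0.59. Cxcl1 was not called, but its log2 fold change of 1.04 (adjusted p = 0.111) stood beside one of 1.00 with vehicle. The log2 signal of Cxcl1 was 6.82, 6.98 and 7.19 in the TUDCA-Sham hearts and 8.04, 7.78, 8.24 and 8.09 in the TUDCA-TAC hearts, which did not overlap. Dpp4 fell by 0.80 (adjusted p = 0.0222), as it had with vehicle, and its call was kept without TUDCA-TAC replicate 4 and with array background in the model, but in 21 of 28 other settings in all. Il1b was detected on 1 of 3 TUDCA-Sham arrays and on 4 of 4 TUDCA-TAC arrays. It entered mainly through the TAC hearts, so its call here is no support for a rise. The log2 fold change of Il1b was 1.11. It was 0.30 without background subtraction and not called there (adjusted p = 0.0500016) or on the authors' normalized table (adjusted p = 0.0565), and the call was kept in 19 of 27 other settings. Of the 5 receptors, 14 signalling genes and 7 adhesion molecules 0 were called in limma. Of 20 macrophage markers 0 were called, and 1 without TUDCA-TAC replicate 4. Of all calls in this comparison 57% were higher, and 87.1% under scaling to one median.

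**Figure D3:**
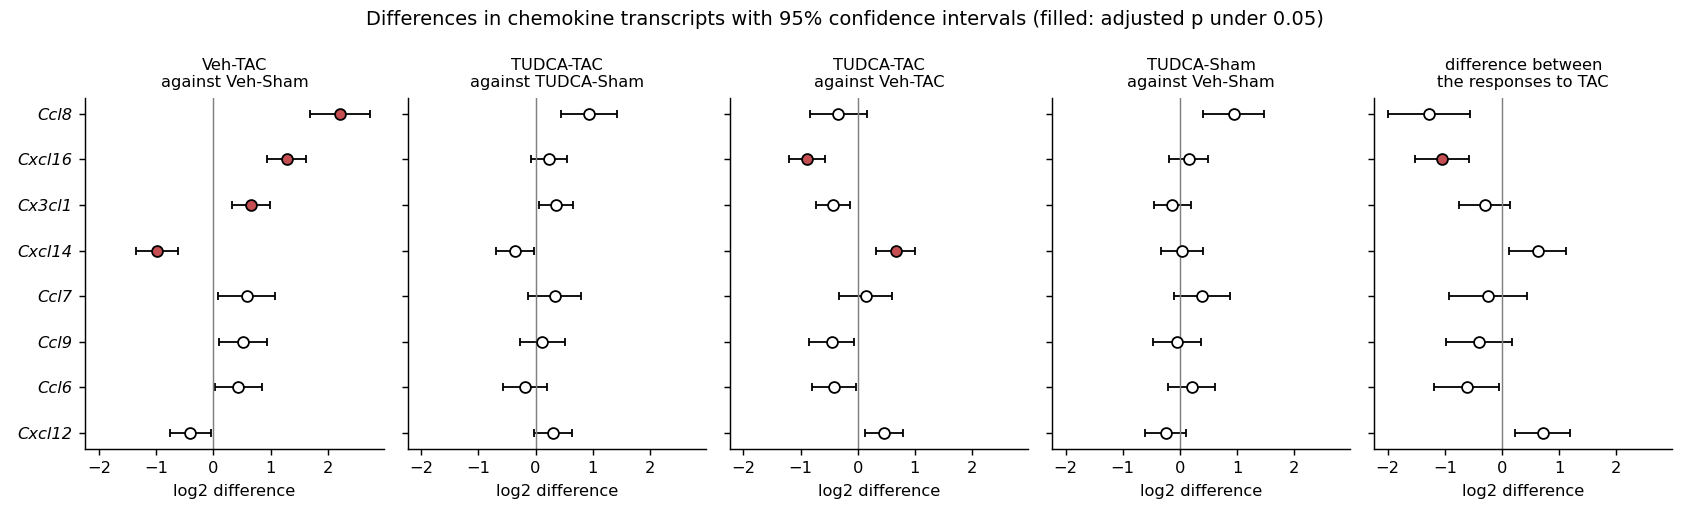
Log2 difference (x axis) of each measured chemokine (y axis) in the 5 comparisons, with points for the limma estimate, bars for its 95% confidence interval and filled points for an adjusted p under 0.05. Filled points appear for 4 genes in the first panel, for Cxcl16 and Cxcl14 in the TUDCA-TAC against Veh-TAC panel, and for Cxcl16 in the last panel.

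The TUDCA-TAC and Veh-TAC hearts were compared next, and they share the Veh-TAC hearts with the comparison of the vehicle groups. Cxcl16 was 1.86-fold lower and Cxcl14 1.59-fold higher in the TUDCA-TAC hearts. These were the 2 calls among the 8 genes, 1 higher and 1 lower, beside 8.17% of all genes called higher and 8.25% called lower. Cxcl12 and Cxcl14 were higher in every TUDCA-TAC heart and Ccl6 and Cxcl16 lower in every one, beside 13% and 13.2% of all genes. The median log2 fold change of the 8 was -0.38, beside 0.01 over all genes.

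For Cxcl16 the log2 fold change was -0.89 (standard error 0.15, 95% confidence interval -1.21 to -0.57, adjusted p = 0.00350). Without TUDCA-TAC replicate 4 it was -0.87 (adjusted p = 0.00967), and -0.90 with array background in the model (adjusted p = 0.0450). The difference was of the same size with and without the heart of lowest background. The log2 fold change of Cxcl14 was 0.66 (standard error 0.16, 95% confidence interval 0.32 to 1.00, adjusted p = 0.0153). It was 0.53 without TUDCA-TAC replicate 4 (adjusted p = 0.0263), while array background in the model brought it to 0.41, no longer called (adjusted p = 0.211). The call of Cxcl14 was also lost without Veh-TAC replicate 2 or without Veh-TAC replicate 3, with adjusted p up to 0.0672 when single hearts were left out. Without background subtraction the log2 fold change of Cxcl14 was 0.38 and still called. Its dimmer probe gave 0.50 and was not called (adjusted p = 0.229).

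Cx3cl1 and Cxcl12 came next, with log2 fold changes of -0.43 (adjusted p = 0.0533) and 0.46 (adjusted p = 0.0584). Both were called on the authors' normalized table and when certain single hearts were left out, Cx3cl1 without Veh-TAC replicate 1 or TUDCA-TAC replicate 1, and Cxcl12 without Veh-Sham replicate 1 or 2. The other probes of Cxcl12 gave -0.16 and 0.20. Ccl9 had a log2 fold change of -0.45 (adjusted p = 0.108, and 0.0382 without TUDCA-TAC replicate 1), Ccl6 one of -0.42 (adjusted p = 0.131) and Ccl7 one of 0.14 (adjusted p = 0.696). Ccl8, the gene with the widest response to vehicle TAC among the 8, had one of -0.34 (95% confidence interval -0.83 to 0.15, adjusted p = 0.338).

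Of the 14 other chemokines 1 was called higher and 4 lower in the TUDCA-TAC hearts. Ccl11 was higher by a log2 fold change of 1.53 (adjusted p = 0.000911), with log2 signals of 8.29, 8.57, 7.82 and 8.53 in the TUDCA-TAC hearts. Ccl4 (-1.33, adjusted p = 0.0135), Ccl12 (-0.95, adjusted p = 0.00908), Ccl5 (-0.95, adjusted p = 0.0262) and Cxcl13 (-0.75, adjusted p = 0.0324) were lower. Without TUDCA-TAC replicate 4 the counts were 2 higher and 3 lower. With array background in the model they were 2 and 1, and Ccl12, Ccl4 and Cxcl13 lost their calls. Cxcl13 also lost its call without TUDCA-TAC replicate 4 (adjusted p = 0.0537) and kept it in 15 of 28 other settings. The hearts of the 2 groups did not overlap for Ccl12 or Ccl4: Ccl12 lay at 10.49, 10.61 and 11.07 in the Veh-TAC hearts and at 9.80, 9.69, 10.00 and 9.58 in the TUDCA-TAC hearts, and Ccl4 at 9.09, 8.63 and 8.76 and at 7.44, 7.08, 7.63 and 7.84. Cx3cr1 was lower by a log2 fold change of -0.95 (adjusted p = 0.00985) and Cxcr4 by one of -0.54 (adjusted p = 0.0430), while Ccrl2 was higher by 0.45 (adjusted p = 0.0472). Mmp2 (-1.07), Mmp14 (-1.17), Tlr2 (-0.64), Tlr4 (-0.65), Vav1 (-0.52) and Was (-0.41) were called lower on the log2 scale. With array background in the model the calls of Cx3cr1, Mmp14, Ccl11 and Ccl5 were kept, while those of Cxcr4, Ccrl2, Mmp2, Tlr2, Tlr4, Vav1 and Was were lost. Over all genes this term left 60 called higher and 80 lower, against 681 and 688 as reported. Without TUDCA-TAC replicate 4, Cxcr4, Ccrl2, Vav1 and Was were not called. The calls of Vav1, Was, Cxcr4 and Ccrl2 were kept in 20, 9, 14 and 11 of 28 other settings.

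Beside these results, 10 of the 20 macrophage markers and 6 of the 11 fibroblast markers were called lower in TUDCA-TAC hearts, with 0 and 1 higher, and the counts were the same without TUDCA-TAC replicate 4. With array background in the model 2 and 1 were lower. The ranges of their summed intensity in the Veh-TAC and TUDCA-TAC hearts, given above, did not overlap. Their part in the chemokine differences was not tested.

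Between TUDCA-Sham and Veh-Sham hearts 0 of the 8 genes were called in limma, beside 0% of all genes called higher and 0% called lower. The unadjusted p was under 0.05 for 1 of the 8. This was Ccl8, with a log2 fold change of 0.94 (standard error 0.24, 95% confidence interval 0.41 to 1.47, unadjusted p = 0.00211, adjusted p = 0.9997). By unadjusted p Ccl8 ranked 14 among all 8336 genes. Ccl8 was the 1 gene of the 8 higher in every TUDCA-Sham heart, and 0 were lower in every one, beside 3.78% and 3.6% of all genes. Mean log2 signals of Ccl8 were 8.05 ± 0.07 (SD, n = 3) in the Veh-Sham hearts and 8.99 ± 0.55 (SD, n = 3) in the TUDCA-Sham hearts, so the spread was wider with TUDCA. Without background subtraction the log2 fold change of Ccl8 was 0.56. The log2 fold changes of the other 7 genes lay between -0.25 (Cxcl12) and 0.39 (Ccl7). The dimmer probe of Cxcl14, which did not stand for the gene, gave 0.52 and was not called. The median of the 8 was 0.10, beside 0.00 over all genes.

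The difference between the responses to TAC with TUDCA and with vehicle was tested as a contrast of all 4 groups. Cxcl16 passed, with a smaller response under TUDCA: 1.28 with vehicle against 0.23 with TUDCA on the log2 scale. Of the 8 genes 0 were called higher and 1 lower, beside 0.852% of all genes called higher and 1.28% lower. Scaling to one median moved the share of these calls that were higher from 39.9% to 10.1%. The log2 difference of Cxcl16 was -1.05 (standard error 0.21, 95% confidence interval -1.51 to -0.58, adjusted p = 0.0393). It was negative in 27 of 27 other settings, between -1.24 and -0.83, but the call was lost in 13 of them. Leaving out any 1 of 9 hearts ended it: each Veh-Sham heart, Veh-TAC replicates 2 and 3, TUDCA-Sham replicates 2 and 3, and TUDCA-TAC replicates 2 and 4. The adjusted p rose to at most 0.122 there. With array background in the model the log2 difference was -1.05 (adjusted p = 0.0851).

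**Figure D4:**
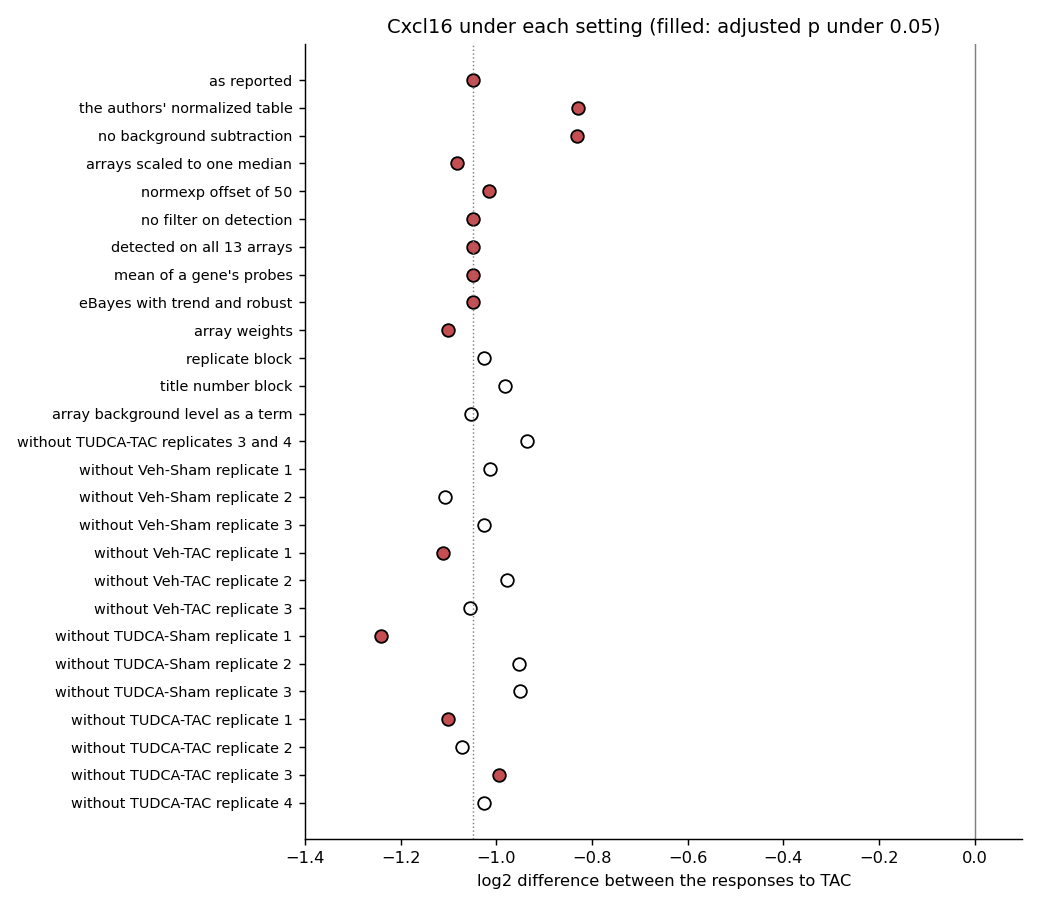
Log2 difference between the responses of Cxcl16 to TAC (x axis) as reported and under each other setting (y axis), filled where the adjusted p was under 0.05. All points lie between -1.24 and -0.83, left of the line at 0, and the dotted line marks the reported -1.05.

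For Ccl8 the log2 difference between the responses was -1.28 (standard error 0.33, adjusted p = 0.0678, and 0.0240 without TUDCA-Sham replicate 1), the responses being 2.22 with vehicle and 0.94 with TUDCA. More of this contrast lay in the sham hearts than in the TAC hearts, since TUDCA-Sham differed from Veh-Sham by 0.94 and TUDCA-TAC from Veh-TAC by -0.34. Cxcl12 had a log2 difference of 0.71 (adjusted p = 0.112), Cxcl14 one of 0.62 (adjusted p = 0.157) and Ccl6 one of -0.62 (adjusted p = 0.209). The other probes of Cxcl12 gave -0.12 and 0.28, and the dimmer probe of Cxcl14 gave -0.02. Ccl9, Cx3cl1 and Ccl7 had -0.40, -0.30 and -0.25, with adjusted p-values of 0.437, 0.453 and 0.710. The unadjusted p was under 0.05 for 5 of the 8. Ccl6 had the highest of these 5 (0.0339 from limma), and it ranked 1352 among all 8336 genes, so many genes passed this limit. Among the 14 other chemokines Ccl12 (-1.41, adjusted p = 0.0393), Cxcl13 (-1.42, adjusted p = 0.0447) and Ccl11 (1.02, adjusted p = 0.0494) were called. These calls were kept in 12, 9 and 7 of 26 other settings, and all 3 were lost without TUDCA-TAC replicate 4 and with array background in the model. Of the 5 receptors 0 were called in limma. For Cx3cr1 the log2 difference was -0.70 (unadjusted p = 0.0323, adjusted p = 0.206). Of the 20 macrophage markers 5 were called lower in this contrast, and of the 11 fibroblast markers 3 (3 and 1 without TUDCA-TAC replicate 4). The part of these cells in the difference of Cxcl16 was not tested.

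The 8 genes varied together to different degrees over the 13 hearts, which share their arrays and groups, so the values of Pearson's r that follow are descriptions. Cxcl16 and Cx3cl1 had an r of 0.87, and 0.52 after the group means had been removed. Ccl8 and Cxcl16 had 0.80, and 0.79 within groups. The latter value leans on the TUDCA-Sham group, where both genes spread most (SD 0.55 and 0.33, n = 3). There replicate 1 was lowest for both. In the Veh-TAC group Ccl8 was highest in replicate 3 and Cxcl16 in replicate 2. Cxcl14 and Cxcl16 had -0.85, and -0.01 within groups: their opposite order lay between the groups. Ccl7 and Ccl8 had 0.77 and 0.58, and Ccl6 and Ccl9 had 0.67 and 0.55. Cxcl12 was negatively correlated with Ccl8 within groups (-0.63).

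Outside the 10 genes, the transcripts most like each called gene over the 13 hearts were as follows. For Ccl8 they were Tnfrsf11b, which encodes osteoprotegerin (r = 0.95), Pld4 (0.93) and Pbdc1 (0.93). For Cxcl16 they were Ly86, a partner of a Toll-like receptor homologue on B cells and macrophages (0.98), Ctsk, which encodes cathepsin K (0.98), and Mfap2, a microfibril protein (0.98). For Cx3cl1 they were Sh3gl1 (0.97), Mxra8 (0.95) and Scarf2 (0.94). For Cxcl14 they were Prkab1, a subunit of AMP-activated kinase (0.96), Il15 (0.96) and Ano10 (0.96). Among these, Ctsk had log2 fold changes of 2.25 with vehicle and 0.55 with TUDCA, and Ano10 had -2.69 and -0.92.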

How the data were processed

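RNA from 13 whole hearts, 1 array each, was analysed in the 4 groups of the labels. The authors deposited raw bead intensity values for 25697 probes from GenomeStudio v2011.1, with neither background subtraction nor normalization, and beside each a detection p-value. They also deposited normalized log2 values for 11732 probes, which differ from quantile-normalized raw log2 intensities by at most 0.119.

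The raw intensities were background-corrected by normexp (limma 3.58.1 in R 4.3.3, controls inferred from detection p-values, offset 16), quantile-normalized and log2-transformed. The offset understates changes of dim probes. A probe entered when its detection p was under 0.05 on 3 or more arrays, and the brightest named probe stood for each gene (8336 genes, 2063 with several probes). This filter removed none of the 11078 named probes, so the setting without it gave the same calls. The authors' normalized table held only probes detected on 8 or more arrays, and gene names were at hand for its probes alone. Entry thus rested on detection on 8 or more arrays. A gene without a named probe can still have probes on the array. limma was fitted to all hearts with a mean for each group, and p-values were adjusted by Benjamini-Hochberg over 8336 genes. The analysis was tested on simulated data.

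The 10 genes and the lists of other chemokine genes and cell markers were chosen with earlier results of these data known. All 10 genes were to be named. In the other lists of the chemokine system, genes called in any comparison could be named and the rest are counted. For each called gene of the 10, the 3 genes with the highest r were named. Alternatives covered normalization, filters, probe choice, the fit, array background and single hearts. The array background was the 25th percentile of raw intensity. Promoters came from RefSeq (GRCm38.p6). Gene names came from the platform annotation, and genes without a named probe were not analysed here.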

Additional observations from a re-analysis of the deposited data

Results flagged for a closer look

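The difference between the responses of Cxcl16 to TAC with TUDCA and with vehicle was -1.05 on the log2 scale (adjusted p = 0.0393 from limma), 1 of the 8 genes tested. It stands here because the 2 treatments gave different responses by a test of the difference itself. The call was lost in 13 of 27 other settings, among them the omission of any 1 of 9 hearts, array background in the model (adjusted p = 0.0851) and the replicate block (adjusted p = 0.0606). Each Veh-TAC heart lay above each Veh-Sham heart, whereas the TUDCA-TAC and TUDCA-Sham hearts overlapped. The TUDCA-TAC group of 4 hearts was the only group examined for a heart far from the others, and no such heart was found for the 8 genes. A check of 4 values finds only a very distant heart, so it cannot show that the hearts were alike.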

How the results depend on the processing

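Of the single-gene values 1094 kept their side of the threshold, 55 gained a call, 27 lost one and 0 called values changed direction. Most of these values belong to results that were not called as reported and had no call to lose. The difference of responses of Cxcl16 alone lost its call in 13 of 27 other settings. For the vehicle groups, the 4 calls among the 8 genes became 7 with arrays scaled to one median and 7 with array weights, and 0 with the number in the sample titles as a block, a fit with few residual degrees of freedom. Leaving out single hearts gave 4 to 5. For the TUDCA groups the 0 calls became 1 (Ccl8) on the authors' normalized table, without background subtraction, with one median, with an offset of 50, with trend and robust moderation, with array weights, and at 1.5-fold with an unadjusted p in limma or in the methods' t-test. Leaving out single hearts gave 0 to 1. For the TAC groups the 2 calls became 4 on the authors' table, without background subtraction and for genes detected on all 13 arrays. They became 1 with one median, when only the compared groups were fitted and with array background in the model, and 0 with the title number and in the methods' t-test after adjustment. Leaving out single hearts gave 1 (without Veh-TAC replicate 2 or 3) to 4 (without TUDCA-TAC replicate 1). For the sham groups 1 gene (Ccl8) was called at 1.5-fold with an unadjusted p in limma and in the methods' t-test. For the difference of responses the 1 call became 2 with one median and with trend and robust moderation, 3 with array weights, 5 at 1.5-fold with an unadjusted limma p, and 0 with the title number, with array background and without TUDCA-TAC replicates 3 and 4. Leaving out single hearts gave 0 to 2. The causes were not tested.

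Over all genes, the 2083 calls of the vehicle groups were 27 with the title number and 906 (the methods' t-test after adjustment) to 2929 (array weights) in the other settings. The 149 calls of the TUDCA groups were 0 (only the compared groups fitted) to 431 (array weights), the 1369 of the TAC groups 0 (title number) to 2128 (array weights), and the 178 of the difference 0 (title number) to 892 (array weights), with 8 without Veh-TAC replicate 3.

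The labels do not say whether hearts with the same replicate number are paired. Deviations of same-numbered hearts correlated between -0.38 and 0.44 over 18 pairs. Hearts of different numbers were not correlated for comparison, so these values cannot decide whether the hearts are paired. A fit with the replicate block gave 5 calls among the 8 genes for the vehicle groups, 2 (Ccl8 and Cxcl14) for the TUDCA groups, 2 for the TAC groups, 0 for the sham groups and 0 for the difference of responses, where Cxcl16 had an adjusted p of 0.0606. No slide is named in the files, so a slide block was not run, and neither the compared groups alone nor the t-test gives a difference of responses. Dim signal limits several probes, among them that of Ccl6, with raw intensities of 352 to 528.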
